A study of Homo sapiens with 32 samples.

Results

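The comparison described here is that of HEK293 cells given EGF and AngII together with cells given EGF alone, both for 6 h, over all genes. It rests on 8 of the 32 libraries that the labels name: 4 labelled EGF+AngII and 4 labelled EGF, chosen by treatment and time and not by any measured value. HEK293 is a human embryonic kidney cell line. All cells of the comparison had been transiently transfected with an expression plasmid for the AngII receptor AT1R and kept in medium without serum before the stimuli, so that the EGF cells carried the receptor plasmid as well. EGF was used at 10 µg/l and AngII at 1 nM. The other 2 conditions after 6 h, control (transfected, no stimulus) and AngII alone, had 4 libraries each. Transient transfection gives a mixture of cells with different amounts of plasmid, and total RNA of the mixture was sequenced. Each condition consists of 2 libraries of a first and 2 of a second library series, a series being a run of library numbers in the labels, here replicates 1 and 2 and replicates 3 and 4. The labels hold no replicate numbers. Those used here follow the order of library numbers, and the same number in different conditions marks no known pair. Nothing in the labels says whether the libraries of a condition come from separate transfections, and p-values measure the spread between these libraries, which may be technical.

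The AT1 receptor is a G-protein-coupled receptor that acts mainly through Gq and G11, phospholipase C and calcium, and also acts on actin. The EGF receptor is a tyrosine kinase whose best known route to the nucleus is the Ras-ERK cascade. Both routes meet at serum response factor (SRF), which binds the CArG box in DNA and is helped either by ternary complex factors such as ELK1, which ERK phosphorylates, or by the actin-regulated MRTF proteins MKL1 and MKL2. Ternary complex factors are known for immediate early genes such as FOS, EGR1 and ARC, and MRTF proteins for genes of the cytoskeleton. The question of the comparison is which transcripts AngII adds to or takes from those of cells that already receive EGF.

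The CArG box is shown in 3 promoters whose genes stand for the arms of this system, EGR1 for immediate early genes, FLNA for the cytoskeleton and SRF for the factor itself. The sequences are the 250 bases before the annotated RefSeq start in GRCh38.p14, in the direction of the gene. CArG boxes (by name) and the EGR motif GCGNGGGCG, searched on both strands, are in capitals. They lie at chr5:138465229-138465478 on the plus strand (EGR1), chrX:154374635-154374884 on the minus strand (FLNA) and chr6:43171019-43171268 on the plus strand (SRF).
EGR1: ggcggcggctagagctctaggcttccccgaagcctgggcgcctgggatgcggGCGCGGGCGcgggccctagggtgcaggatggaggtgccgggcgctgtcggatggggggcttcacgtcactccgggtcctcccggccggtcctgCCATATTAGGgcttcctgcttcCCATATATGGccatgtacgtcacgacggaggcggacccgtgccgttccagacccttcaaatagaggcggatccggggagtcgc
FLNA: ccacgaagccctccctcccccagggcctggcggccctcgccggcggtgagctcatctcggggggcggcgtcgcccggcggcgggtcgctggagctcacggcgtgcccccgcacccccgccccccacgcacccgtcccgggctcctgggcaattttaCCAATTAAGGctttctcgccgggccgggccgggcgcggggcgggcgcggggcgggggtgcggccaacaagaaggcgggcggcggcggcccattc
SRF: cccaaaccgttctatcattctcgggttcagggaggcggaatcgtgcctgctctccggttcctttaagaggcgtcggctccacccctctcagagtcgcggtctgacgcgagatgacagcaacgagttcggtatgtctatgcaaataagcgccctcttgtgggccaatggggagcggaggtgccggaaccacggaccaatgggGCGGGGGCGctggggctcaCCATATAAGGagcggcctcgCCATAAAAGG
In EGR1 the first capitals are the EGR motif and the next 2 are CArG boxes, the only capitals in FLNA are a CArG box, and in SRF the EGR motif stands before 2 CArG boxes, the last of which ends at the start site. A CArG box was found in 407 of 35116 promoters (1.16%) and the EGR motif in 2955 (8.41%). These are matches of letters and not measured binding.

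The EGF libraries held 5738377 to 8540815 counted fragments and the EGF+AngII libraries 5518193 to 7071086, of which 81.6 to 84.7% were in protein-coding genes. Of 57773 genes listed, 18618 had enough counts to be tested. Levels are given as FPM, fragments per 1000000 of a library's total after scaling between libraries, and differences as log2 of EGF+AngII minus log2 of EGF from 1 edgeR fit over the 16 libraries of 4 conditions. Of 8 HEK293 markers 7 were above 1 FPM in every one of the 8 libraries and PAX2 was below, and their summed level was 1335 to 1506 FPM with EGF and 1499 to 1665 FPM with EGF+AngII. Of 11 markers of other cell types 8 were below 1 FPM in every library, and CD3E and NPHS1 had no counts. The other 3, MYH11, COL1A1 and COL3A1, were above 1 FPM in every library. With EGF they were at 10.4 to 15.8, 12.1 to 15 and 14 to 20.4 FPM. With EGF+AngII they were at 12.3 to 15.2, 13.6 to 21.5 and 19.2 to 22.6 FPM. PECAM1 was also planned as a marker and has no value here. The summed level of the 11 was 43.6 to 48.3 FPM with EGF and 48.4 to 57.3 FPM with EGF+AngII. The part of these summed levels in the results was not tested.

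No gene passed the call, an FDR under 0.05 with a change above 1.5-fold and a mean above 5 FPM. Thus 0 of 18618 genes (0%) were called, and 0 also without the limits on fold and FPM, the lowest adjusted p being 0.093 (edgeR quasi-likelihood test with Benjamini-Hochberg adjustment). An unadjusted p under 0.05 was reached by 1352 genes (7.26%, where chance gives 5%), 703 of them higher with AngII (3.78%) and 649 lower (3.49%). With DESeq2 1181 genes reached it, with only the 8 libraries compared 2010 of 17731 (11.3%) and with these and a series block 2628 (14.8%). The values of all genes below are therefore measurements with their errors, and "higher" and "lower" refer to the libraries compared. The groups did not overlap for 531 genes in the higher direction (2.85%) and 509 in the lower (2.73%).

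The precision limits how large a difference between these libraries could have been missed. It sets no limit for the transfected cells alone, since RNA of the mixture was sequenced. Among the 12973 genes above 5 FPM the median standard error of the log2 difference was 0.12, with quartiles of 0.090 and 0.16. The 95% interval lay within a 1.5-fold change either way for 11189 of them (86.2%) and within a 2-fold change for 99.0%. Point estimates beyond 1.5-fold were rare, 21 genes higher and 19 lower, between −1.07 and 1.10 on the log2 scale. Of these 21 and 19 genes, 19 and 16 had a mean below 20 FPM in the group where they were higher, and 15 of the 21 but 2 of the 19 were protein-coding.

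**Figure D1:**
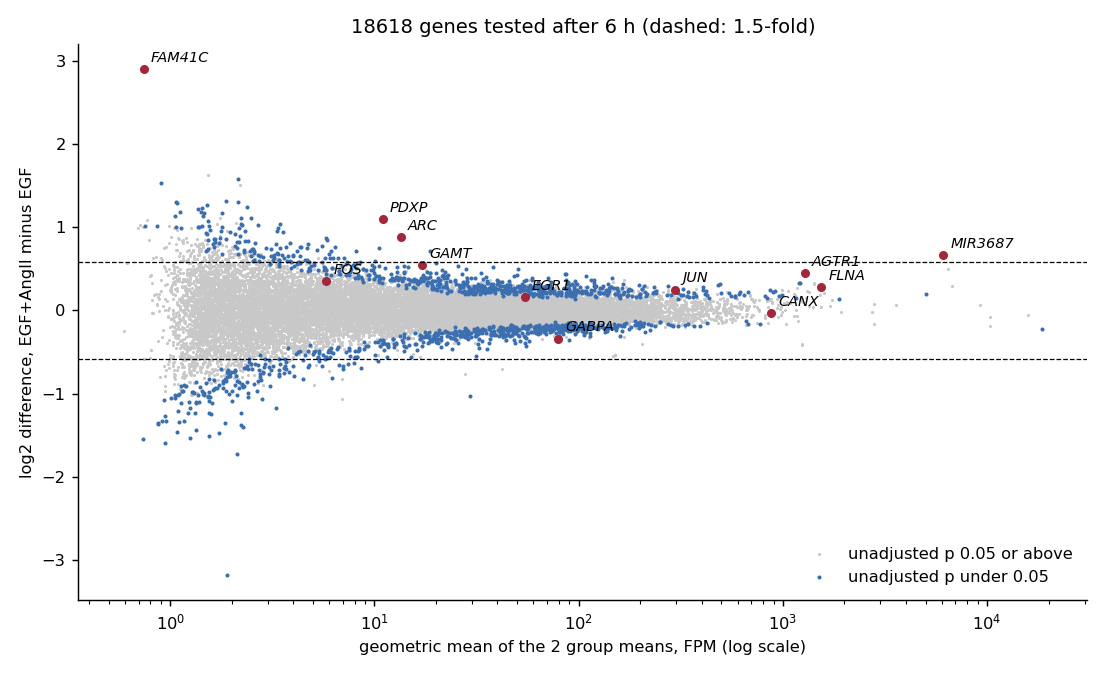
Each point is one of the 18618 genes tested after 6 h. The horizontal axis gives the geometric mean of both group means in FPM on a log scale and the vertical axis the log2 difference EGF+AngII minus EGF. Dashed lines are at 1.5-fold, blue points had an unadjusted p under 0.05 and red points are the genes labelled by name. The cloud narrows with the level, and above 5 FPM only 40 genes lie beyond the dashed lines, among them ARC at 0.88 and PDXP at 1.10.

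The transcript of the receptor itself stood first by p. AGTR1, which encodes AT1R, is located at chr3:148415571-148460795 of hg19 on the plus strand and overlaps no other gene of the annotation used. Its level was 1236, 1023, 1071 and 1059 FPM in EGF replicates 1 to 4 and 1414, 1451, 1568 and 1554 FPM in EGF+AngII replicates 1 to 4. All 4 EGF+AngII libraries were above all 4 EGF libraries. The means were 1097 ± 94.6 and 1497 ± 76.0 FPM (SD, n = 4 each), a 1.36-fold difference with a 95% interval from 1.22 to 1.52. On the log2 scale the difference was 0.45 ± 0.076 (SE), with an unadjusted p of 5.17e-06 and an adjusted p of 0.093 (edgeR), and it was 0.34 within the first and 0.55 within the second library series. The exact two-sided permutation test gave p = 0.029, the smallest that 4 against 4 libraries allow. Counts of the plasmid and of the endogenous gene cannot be told apart in these data, nor can more transfected cells and more transcript per cell. AGTR1 passed an FDR of 0.05 in several alternatives, with an adjusted p of 0.00025 in DESeq2, 0.00021 in voom, 0.0077 with only the 8 libraries compared and 0.0016 after each library was corrected for its own trend with the GC content of transcripts (GC correction), but its change stayed under 1.5-fold in each.

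AngII without EGF was measured for AGTR1 in separate libraries. Control libraries had a mean of 1096 FPM and AngII libraries one of 1388 FPM, a log2 difference of 0.34 ± 0.076 with an unadjusted p of 0.00017 and an adjusted p of 0.99 (edgeR). The control and AngII groups again did not overlap (exact permutation test, p = 0.029). The AngII effects with and without EGF differed by 0.11 (adjusted p of the difference 0.79). After 24 h the level was 502 ± 133 FPM with EGF (n = 4) and 544 ± 75.2 FPM with EGF+AngII (n = 3), and the log2 difference of 0.12 had a standard error of 0.20. The libraries of these groups after 24 h had 24.3 to 60.1% of their counts in protein-coding genes, against 81.6 to 84.7% after 6 h, and the FPM of reference genes was lower as well, with means of 263 and 246 FPM for GAPDH and 548 and 554 FPM for CANX. FPM are therefore not compared between the time points, and each 24 h value stands against the other condition at 24 h.

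Among immediate early genes, which respond to stimuli without new protein synthesis, 31 of 35 were tested. With AngII 7 were higher and 1 was lower at an unadjusted p under 0.05 (25.8% of the list, against 7.26% of all genes), and none was called. The median log2 difference was 0.13, against 0.00020 over all genes tested, and 24 of the 31 differences were positive. The 7 genes were ARC, JUND, TRIB1, IER2, JUN, EGR3 and MAFF, and the lower one was the cyclin gene CCNL1 (log2 difference −0.20 ± 0.085). The transcript GC content of the list had a median of 55.3%, and GC content moved with the difference in these libraries. After GC correction the median was 0.075, with 2 of the 31 members higher and 0 lower at an unadjusted p under 0.05. Of all genes 1.98% were higher and 2.02% lower after that correction. Members of this and the next lists, apart from those of the stable clone, were chosen with earlier results of these data known. Their shares beside that of all genes are therefore a description and no test.

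ARC, which encodes a synaptic cytoskeletal protein and is a classical SRF target, had the largest difference of the list. EGF replicates 1 to 4 had 12.3, 9.12, 9.15 and 9.22 FPM and EGF+AngII replicates 1 to 4 had 17.5, 15.6, 21.4 and 18.5 FPM. The lowest library with AngII was thus above the highest without it. The means of 9.95 ± 1.58 and 18.3 ± 2.40 FPM (SD, n = 4 each) differed 1.85-fold, with a 95% interval from 1.39 to 2.45. The log2 difference was 0.88 ± 0.20 (SE), with an unadjusted p of 0.00017 and an adjusted p of 0.58 (edgeR), and it was 0.634 and 1.117 within the library series. ARC was called with only the 8 libraries compared (adjusted p = 0.047, edgeR), by the exact test of edgeR (7.6e-05), by voom (0.042), without a filter on low counts (0.0012) and by the 8 libraries with a series block (0.0064), and not by DESeq2 (0.052). The fit without a filter gave MIR3687, whose groups overlapped, an adjusted p of 4.6e-22, against 0.68 with the filter (edgeR). Its calls are therefore no added support. After GC correction the log2 difference was 0.65, with an unadjusted p of 0.0027 and an adjusted p of 1 (edgeR). Without EGF the gene was at 1.61 FPM in control and 2.05 FPM in AngII libraries, a log2 difference of 0.29 ± 0.38, and within the 24 h libraries, whose FPM are not comparable with those after 6 h, it was at 3.57 FPM with EGF and 3.93 FPM with EGF+AngII.

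The AP-1 components gave smaller differences. JUN had 248, 281, 267 and 295 FPM with EGF and 309, 306, 327 and 354 FPM with EGF+AngII. These groups did not overlap, and the difference was 0.25 ± 0.10 on the log2 scale (unadjusted p = 0.024, adjusted p = 0.68, edgeR). JUND, a Jun protein found in most cells at rest, had 59.7, 59.9, 60.1 and 67.7 FPM with EGF and 70.6, 68.1, 86.7 and 98.2 FPM with EGF+AngII. The first library series of EGF+AngII was close to the highest EGF library and the second was well above it. The log2 difference of 0.39 ± 0.12 became 0.11 after GC correction, and the transcript has a GC content of 69.9%. FOS, the partner of the Jun proteins, had 4.96, 5.53, 3.79 and 6.18 FPM with EGF and 7.51, 7.81, 6.59 and 4.51 FPM with EGF+AngII. Both groups overlapped, since EGF+AngII replicate 4 was below 3 EGF libraries, and the log2 difference was 0.35 ± 0.22 (unadjusted p = 0.13, edgeR; exact permutation test, p = 0.17).

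The EGR zinc finger genes, whose products bind the GC-rich motif shown in the EGR1 and SRF promoters, did not separate. EGR1 had 54.6, 54.7, 49.1 and 47.8 FPM with EGF and 68.5, 60.3, 52.9 and 49.2 FPM with EGF+AngII. The second library series was lower than the first in both conditions, and the log2 difference of 0.16 ± 0.11 was 0.24 within the first and 0.076 within the second series. EGR3 had 8.04, 7.17, 6.16 and 8.37 FPM with EGF and 11.4, 9.81, 7.91 and 10.2 FPM with EGF+AngII, a log2 difference of 0.40 ± 0.18 (unadjusted p = 0.034, adjusted p = 0.68, edgeR). EGR3 was higher with AngII in both series, at 0.48 and 0.31. EGR2 was not tested because of low counts, which were 14, 6, 6 and 11 with EGF and 17, 9, 18 and 10 with EGF+AngII. For all of FOS, ARC, EGR1 and EGR3 the control and AngII libraries were far below those with EGF, for example at means of 2.25 and 3.26 FPM for EGR1.

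Other immediate early genes were TRIB1, a pseudokinase gene, at 47.8 ± 2.93 and 56.7 ± 2.28 FPM (log2 difference 0.25 ± 0.092), and IER2 at 18.5 ± 1.64 and 23.1 ± 2.82 FPM (0.33 ± 0.13). TRIB1 libraries of the groups did not overlap and IER2 libraries did. TRIB1 kept an unadjusted p of 0.042 after GC correction (edgeR), and IER2 had 0.14. MAFF, a small Maf protein gene at 3.93 and 5.80 FPM, had a log2 difference of 0.58 ± 0.26. MYC at 473 and 499 FPM, ATF3 at 58.2 and 63.8 FPM, NR4A1 at 15.2 and 18.4 FPM and KLF4 at 85.3 and 92.7 FPM were higher in the mean with AngII without reaching an unadjusted p under 0.05. ZFP36, NR4A2, KLF10, ZFP36L1, BTG1 and MCL1 were lower in the mean, also without reaching it.

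**Figure D2:**
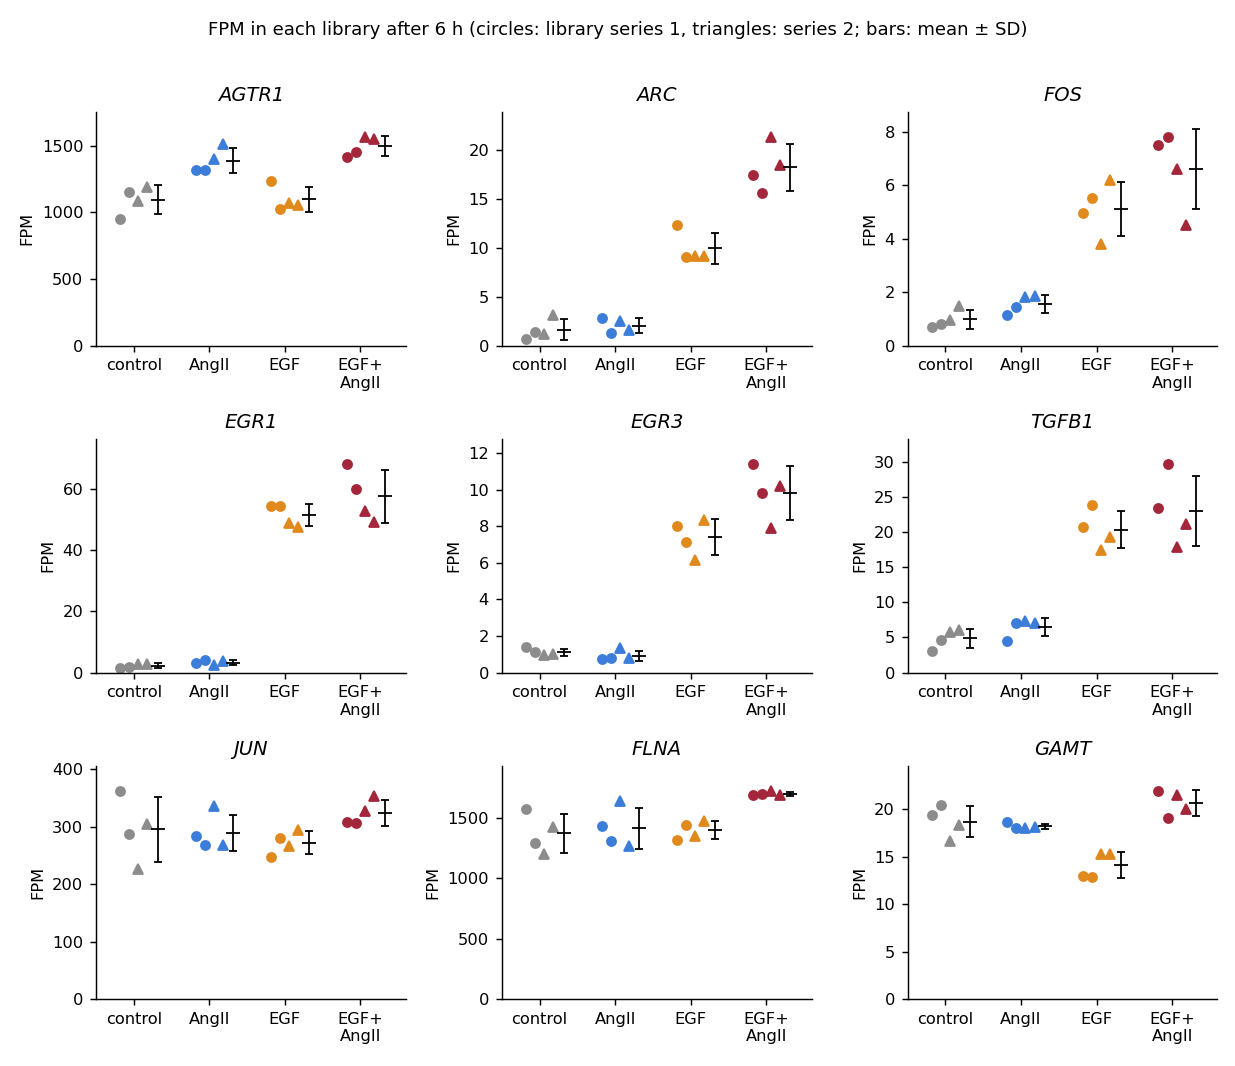
FPM of 9 genes in each of the 16 libraries after 6 h; each panel has its own vertical axis from 0, colours mark the 4 conditions, circles the first and triangles the second library series, and black bars the mean ± SD of 4 libraries. In AGTR1, ARC, JUN, FLNA and GAMT all EGF+AngII libraries lie above all EGF libraries, whereas in FOS, EGR1, EGR3 and TGFB1 they overlap, and GAMT has its lowest level with EGF alone.

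For SRF and its cofactors the values were close to 0 difference. SRF had 62.8, 76.4, 65.3 and 73.8 FPM with EGF and 77.2, 60.7, 70.7 and 71.4 FPM with EGF+AngII. The libraries of both conditions were mixed in order, and the ratio was 1.01 with a 95% interval from 0.888 to 1.14. MKL1 (34.4 and 34.4 FPM) had an interval of the ratio from 0.856 to 1.17, MKL2 (83.6 and 82.1 FPM) one from 0.881 to 1.09 and ELK1 (61.8 and 67.3 FPM) one from 0.969 to 1.22. The sign of the SRF and MKL1 differences turned with GC correction, to −0.14 and −0.16, and that of MKL2 to 0.013. MYOCD, the cofactor of muscle, had 1 count in EGF replicate 4 and none in the other 7 libraries. Of this list 0 of 6 tested members reached an unadjusted p under 0.05, against 7.26% of all genes, a share too small to show in 6 genes.

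Cytoskeletal targets of SRF and MRTF, such as actins, filamins and myosins, had 28 of 33 members tested. FLNA, MYH9 and ACTN4 were higher at an unadjusted p under 0.05 and none was lower (10.7%, against 7.26% of all genes), and the median log2 difference was 0.074. FLNA, the actin cross-linker whose promoter is shown above, had 1318, 1444, 1352 and 1479 FPM with EGF and 1690, 1700, 1727 and 1688 FPM with EGF+AngII. The 4 EGF+AngII libraries agreed within an SD of 18.1 FPM and were all above the EGF libraries. Its log2 difference of 0.28 ± 0.082 (unadjusted p = 0.0021, adjusted p = 0.68, edgeR) was 0.30 and 0.27 within the series and 0.12 after GC correction, with a transcript GC content of 62.1%. MYH9, a non-muscle myosin heavy chain, was at 303 ± 26.0 and 344.5 ± 17.6 FPM, and ACTN4, an actinin, at 265 ± 14.6 and 300 ± 10.2 FPM. Their GC-corrected differences were 0.064 and 0.059. ACTB at 1192 and 1288 FPM, VCL at 193 and 204 FPM and TAGLN at 4.49 and 4.68 FPM had log2 differences of 0.11, 0.079 and 0.064. ACTA2 and FILIP1L had the opposite sign, at −0.21 and −0.19, and 22 of the 28 differences were positive. The median of the list was 0.013 after GC correction and 0.042 without EGF replicate 1.

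ERK feedback genes had the highest median of all lists, 0.18 over 20 tested of 24 members, of which 18 were positive. The list holds dual specificity phosphatases, Sprouty proteins and relatives. It also holds genes of other kinds, such as ETV1, ETV4, ETV5, PHLDA1 and PHLDA2, so its median is not one of ERK-limiting genes alone. LRIG1 and PHLDA2 were higher at an unadjusted p under 0.05 and none was lower (10%, close to the 7.26% of all genes). LRIG1, a membrane protein that promotes the degradation of EGF receptors, had 78.2, 76.5, 81.4 and 89.5 FPM with EGF and 94.0, 89.7, 91.5 and 92.0 FPM with EGF+AngII. The groups lay directly next to each other, at EGF replicate 4 and EGF+AngII replicate 2. PHLDA2 had 3.25, 3.59, 2.53 and 3.64 FPM and 6.26, 4.54, 5.27 and 5.41 FPM, a log2 difference of 0.71 ± 0.27. SPRY1 at 34.6 and 39.4 FPM, SPRY2 at 17.3 and 19.7 FPM and DUSP4 at 16.3 and 17.7 FPM had unadjusted p of 0.17, 0.17 and 0.48 (edgeR). After GC correction the median of the list was 0.11.

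In AT1 receptor signalling 30 of 33 genes were tested, and 5 were higher at an unadjusted p under 0.05 while none was lower (16.7%, against 7.26% of all genes). Beside AGTR1 these were ARHGEF11 and GNA11, PLCB3 and ITPR3, of which the last 3 encode a G protein alpha subunit, a phospholipase C and an inositol trisphosphate receptor. GNA11 was at 51.5 ± 4.35 and 61.8 ± 6.21 FPM, ITPR3 at 153 ± 14.4 and 176 ± 9.34 FPM and ARHGEF11 at 82.9 ± 7.0 and 94.1 ± 3.54 FPM. GNAQ, the closest relative of GNA11, had the opposite sign, with 104 and 92.8 FPM and a log2 difference of −0.16 ± 0.079. GNA11 transcripts have a GC content of 62.9%, and of these genes AGTR1 alone had an unadjusted p under 0.05 after GC correction. The median of the list was 0.075, and it was 0.021 after correction and 0.026 without EGF replicate 1.

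For the EGF receptor family 12 of 21 genes were tested, which include the 4 receptors and the adaptors. Most ligands, among them EGF, TGFA, AREG and EREG, had too few counts to be tested. EGFR had 56.1, 51.9, 59.7 and 64.3 FPM with EGF and 60.8, 67.8, 57.4 and 56.3 FPM with EGF+AngII, a ratio of 1.04 with an interval from 0.909 to 1.19. It was higher with AngII within the first series (0.25) and lower within the second (−0.13). ERBB2, the receptor with which EGFR pairs, was at 80.1 and 87.9 FPM (log2 difference 0.14 ± 0.086). HBEGF, the ligand through which AT1R can activate EGFR in other cells, was not tested, with 7, 6, 8 and 9 counts under EGF and 15, 5, 9 and 13 under EGF+AngII. None of 12 tested members of this list and none of 14 EGR targets reached an unadjusted p under 0.05 in either direction. Nor did any of 10 AP-1 targets or 21 calcium and cAMP response genes. Over all genes the share was 7.26%, so that lists this short would hold few such members, and their absence is no result. After GC correction 1 AP-1 target was higher at an unadjusted p under 0.05 (edgeR). TGFB1, an EGR target and a cytokine of fibrosis, had 20.7, 23.9, 17.5 and 19.4 FPM with EGF and 23.4, 29.8, 17.9 and 21.2 FPM with EGF+AngII. EGF+AngII replicate 2 stood highest, the groups overlapped, and the log2 difference of 0.17 ± 0.16 was −0.0051 after GC correction.

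Hypoxia response genes, many of them glycolytic enzymes, had the largest share of low p-values. The members of this list, too, were chosen with earlier results of these data known, so the share is a description. Of 27 tested members 8 were higher at an unadjusted p under 0.05 and 0 were lower (29.6%, against 7.26% of all genes). They were ALDOA, ENO1, HK2, PFKFB3, SLC2A1, NDRG1, P4HA2 and ANKRD37, of which the first 4 act in glycolysis and SLC2A1 carries glucose into the cell. ALDOA had 766, 859, 860 and 889 FPM with EGF and 968, 1036, 956 and 1004 FPM with EGF+AngII. The groups did not overlap, and the log2 difference of 0.23 ± 0.073 (unadjusted p = 0.0039, adjusted p = 0.68, edgeR) was 0.16 after GC correction. HK2 had 127, 140, 143 and 151 FPM and 157, 181, 144 and 164 FPM, with overlap through EGF+AngII replicate 3. Its difference was 0.34 within the first series and 0.063 within the second. P4HA2, a collagen hydroxylase gene, was at 10.99 ± 1.68 and 15.2 ± 1.21 FPM (0.46 ± 0.19) and ANKRD37 at 3.34 ± 1.26 and 5.69 ± 1.36 FPM (0.76 ± 0.28).

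The median of the hypoxia list was 0.11, and 0.078 after GC correction. After correction 5 members were higher and 0 lower at an unadjusted p under 0.05, against 1.98% and 2.02% of all genes. LDHA, another member, had 723 and 698 FPM, and VEGFA 45.8 and 49.2 FPM, neither with a low p. Without EGF the median of the list for AngII minus control was −0.023, and after 24 h that for EGF+AngII minus EGF was −0.088. The median rested on single libraries. It was −0.011 without EGF+AngII replicate 2, the lowest of the values with 1 library left out, which reached up to 0.15. The median deviation of the list's members from the mean of the 8 libraries was 0.12 and 0.25 in EGF+AngII replicates 1 and 2 but −0.12 and −0.092 in replicates 3 and 4, so that only the first library series of EGF+AngII stood above all EGF libraries.

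The remaining lists had 1 or 2 members with an unadjusted p under 0.05, a share to be read against 7.26% of all genes. It was 8.7% for ATF4 and amino acid genes, 5% for aminoacyl-tRNA synthetases and 11.1% for G1 cell cycle genes. For YAP targets it was 14.3%, for TGF-beta genes 5.56% and for VEGF and vascular genes 16.7%. ATF4 and amino acid genes had a median of 0.14 over 23 tested members, with PHGDH, the first enzyme of serine synthesis, at 130 ± 17.2 and 158 ± 13.1 FPM and the glutamine carrier SLC1A5 at 390 ± 42.6 and 457 ± 37.2 FPM. PHGDH groups did not overlap and its GC-corrected log2 difference was 0.22 (unadjusted p = 0.010, edgeR), while that of SLC1A5 went from 0.23 to 0.074 (0.38). Of 20 aminoacyl-tRNA synthetases YARS alone had a low p (0.17 ± 0.079), and the median was 0.034. G1 cell cycle genes had a median of 0.072 over 18 members, with the kinase gene CDK4 at 98.8 ± 6.26 and 116 ± 7.98 FPM and its inhibitor CDKN2C at 53.2 ± 3.15 and 60.8 ± 2.80 FPM, so that an activator and an inhibitor had the same sign. Of 14 YAP targets NOV (42.0 ± 2.66 and 48.6 ± 3.01 FPM) and ARHGEF17 (48.5 ± 3.83 and 59.5 ± 2.93 FPM) had a low p, while CTGF and CYR61, the usual reporters of YAP, had log2 differences of 0.013 ± 0.28 and 0.041 ± 0.14. SKIL, an inhibitor of Smad proteins, was the only TGF-beta gene of 18 with a low p (−0.23 ± 0.11). Of 12 VEGF and vascular genes the ephrin receptor gene EPHB4 was higher (0.23 ± 0.11) and NRP1, a co-receptor for VEGF, lower (−0.30 ± 0.12). NRP1 had 33.9, 28.7, 24.6 and 31.5 FPM with EGF and 22.9, 26.7, 22.6 and 24.2 FPM with EGF+AngII, with overlap through EGF replicate 3. After GC correction NRP1, NOV and CDK4 kept an unadjusted p under 0.05 (edgeR, log2 differences of −0.27, 0.24 and 0.18). YARS (0.12), ARHGEF17 (0.13), CDKN2C (0.073), EPHB4 (0.084) and SKIL (−0.093) did not.

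**Figure D3:**
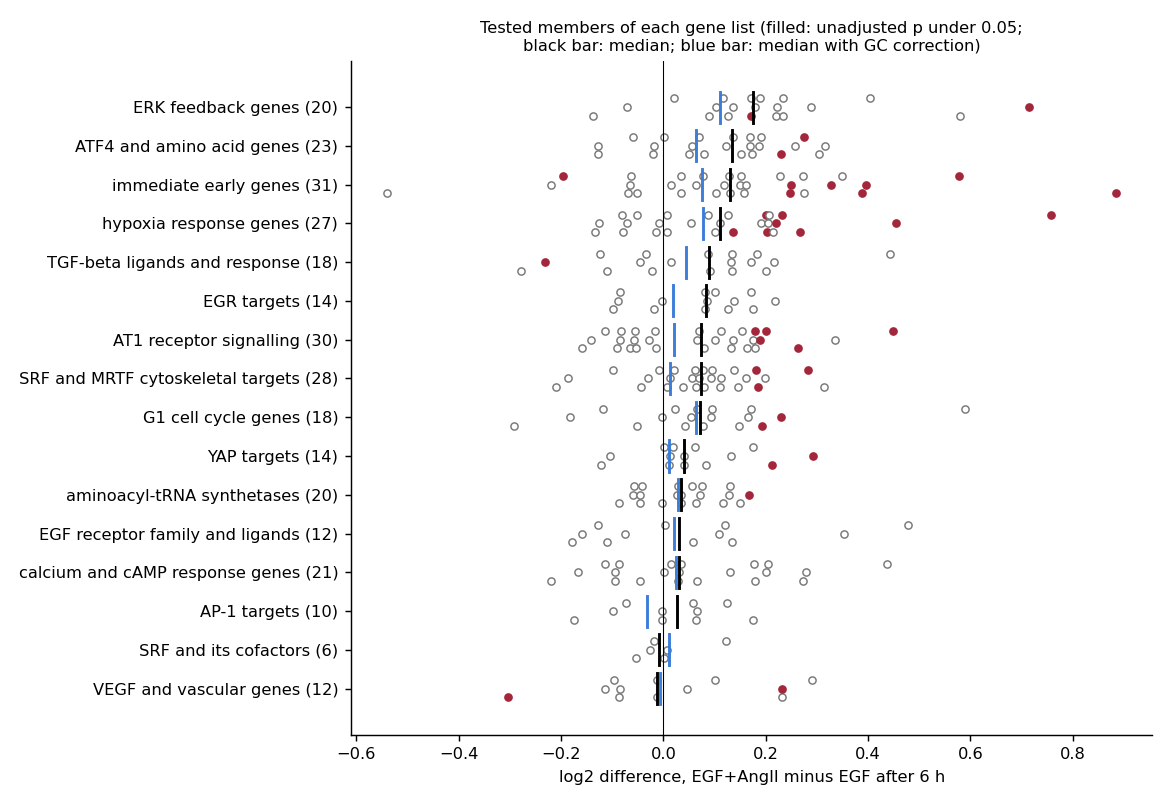
Log2 difference EGF+AngII minus EGF after 6 h (horizontal axis) for every tested member of 16 gene lists, with the number tested in brackets; filled points had an unadjusted p under 0.05, the black bar is the list's median and the blue bar its median after GC correction. The medians run from −0.012 (VEGF and vascular genes) to 0.18 (ERK feedback genes), and most blue bars lie nearer to 0 than the black ones.

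The study also used a HEK293 clone with stable AT1R expression, whose libraries were not used here. Lists of genes regulated in that clone by the same stimuli after 6 h gave small differences. Before GC correction their medians were positive for genes lower in the clone as well as for genes higher in it. They thus did not follow the direction in the clone. Of the 117 genes higher with AngII in that clone 109 were tested, 14 of them higher and 0 lower at an unadjusted p under 0.05, with a median of 0.087. Of the 69 lower with AngII 68 were tested, 4 higher and 3 lower, with a median of 0.056. Of the 381 genes higher with EGF 369 were tested, 52 higher and 6 lower (median 0.10), and of the 277 lower with EGF 272 were tested, 17 higher and 4 lower (median 0.032). In that order of the lists 12.8, 10.3, 15.7 and 7.72% of the tested members had an unadjusted p under 0.05, against 7.26% of all genes, and none was called. After GC correction the medians were 0.061, −0.016, 0.046 and −0.0010. The list of genes higher with EGF includes ARC, EGR3, MAFF, PHLDA2, HK2 and SLC2A1, so that it counts members of the lists above again.

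The 10 genes with the smallest p in each direction, among those above 5 FPM whose groups do not overlap, were named by rule, and their differences are a description of what that rule picked. The higher 10 were AGTR1, GAMT, ARC, PDXP, RP11.561C5.4, CTDSP1, POU5F1, GTSE1, CSPG4 and C1orf50. GAMT, the enzyme that makes creatine (chr19:1397025-1401569, minus strand, hg19), had 13, 12.9, 15.3 and 15.3 FPM with EGF and 21.98, 19.1, 21.5 and 20 FPM with EGF+AngII, 1.46-fold with an interval from 1.25 to 1.71 (adjusted p = 0.33, edgeR). Its control and AngII means were 18.7 and 18.2 FPM. The EGF libraries of GAMT thus stood below those of the other 3 conditions. The EGF mean was also the lowest of the 4 for POU5F1, a pluripotency factor gene with near-identical pseudogene copies and an overlapping gene on the other strand, at means of 8.55 in control, 6.89 with AngII, 4.38 with EGF and 7.82 FPM with EGF+AngII. C1orf50, again lowest in the mean with EGF, was at 12.6, 10.1, 8.23 and 12.4 FPM in that order of conditions. Of the higher 10 genes 7 had their lowest mean with EGF alone and 7 their highest with EGF+AngII.

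PDXP, a phosphatase gene for pyridoxal phosphate, had the largest difference above 5 FPM. It had 5.48, 7.17, 7.42 and 9.94 FPM with EGF and 10.2, 13.4, 17.3 and 23.6 FPM with EGF+AngII. The lowest EGF+AngII library was only slightly above the highest EGF library, and the second series was the higher one in both conditions. The log2 difference was 1.10 ± 0.26 (unadjusted p = 0.00032, adjusted p = 0.68, edgeR), 0.89 after GC correction and −0.57 ± 0.58 after 24 h. The gene overlaps another protein-coding annotation on the same strand, so its reads are uncertain. It was called by the exact test of edgeR (0.0031), without a filter on low counts (1.4e-06) and by the 8 libraries with a series block (0.0058). The call without a filter is again no added support, as for ARC. RP11.561C5.4 is a transcribed pseudogene that overlaps other annotated transcripts, so its counts are uncertain. CSPG4, a cell surface proteoglycan, was at 18.9 ± 1.15 and 26.1 ± 1.52 FPM, the phosphatase CTDSP1 at 58.7 ± 6.08 and 72.0 ± 3.68 FPM and GTSE1, a mitotic protein, at 77.1 ± 6.28 and 92.9 ± 3.39 FPM.

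The lower 10 were CTC.444N24.11, GABPA, TMLHE.AS1, ELMOD2, RP11.347P5.1, NAA16, TMEM106B, SMIM4, SKA2 and BHLHB9. GABPA, an ETS family transcription factor for genes of mitochondria (chr21:27106881-27144771, plus strand, hg19), had 101, 83.4, 90.1 and 83.2 FPM with EGF and 76.5, 65.2, 72.2 and 68.4 FPM with EGF+AngII, a log2 difference of −0.34 ± 0.076 (unadjusted p = 0.00019, adjusted p = 0.58, edgeR). It overlaps ATP5PF on the other strand, and the strand setting of the counts is not stated. CTC.444N24.11, a long noncoding RNA on chromosome 19, had 94.6, 84.1, 89.6 and 87.7 FPM and 73.3, 72.3, 72.3 and 70.2 FPM, −0.30 ± 0.067. Both were about as different in each series, at −0.38 and −0.30 for GABPA and −0.30 and −0.31 for the RNA, and both were smaller after GC correction, at −0.21 and −0.17. Their control and AngII means lay between the EGF and the EGF+AngII means, at 79.9 and 82.8 FPM for GABPA and 80.7 and 80.5 FPM for the RNA. In all of the lower 10 the EGF+AngII mean was the lowest of the 4 conditions, and in 7 the EGF mean was the highest, a pattern that choosing genes by this contrast favours.

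TMEM106B, a lysosomal membrane protein, had 77.0, 53.2, 60.4 and 58.4 FPM with EGF and 53.1, 51.0, 43.3 and 42.9 FPM with EGF+AngII, so that EGF replicate 1 stood well above the others while EGF+AngII replicate 1 lay just under EGF replicate 2. Its difference of −0.39 ± 0.10 was −0.22 after GC correction. ELMOD2 was at 58.8 ± 5.32 and 45.6 ± 4.02 FPM, SKA2, of the kinetochore, at 64.4 ± 4.49 and 50.1 ± 4.33 FPM, and NAA16, of an N-terminal acetyltransferase, at 47.9 ± 4.09 and 38.3 ± 0.613 FPM. SMIM4 (9.78 ± 0.788 and 6.60 ± 0.631 FPM), TMLHE.AS1 (10.99 ± 2.74 and 6.79 ± 0.939 FPM), RP11.347P5.1 (8.19 ± 1.504 and 4.69 ± 1.16 FPM) and BHLHB9 (27.9 ± 2.45 and 21.9 ± 1.09 FPM) overlap other annotated genes, the first 3 of them on the other strand. TMLHE.AS1 and RP11.347P5.1 were beyond 1.5-fold, at −0.69 and −0.81 on the log2 scale.

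FAM41C, a long noncoding RNA of low level, shared the lowest adjusted p of 0.093 with AGTR1. It had 3, 2, 0 and 2 counts in EGF replicates 1 to 4 and 13, 17, 11 and 9 counts in EGF+AngII replicates 1 to 4. Control libraries had 17, 12, 15 and 9 counts and AngII libraries 8, 9, 8 and 5. The EGF libraries were thus the ones that stood apart from the other 3 conditions. With fewer than 20 counts in any library it lies far under the limit of 5 FPM. RNF5P1, a pseudogene with a near-identical parent gene, had 13.2, 11.2, 12.5 and 21.7 FPM with EGF and 14.3, 17.98, 33.2 and 30.7 FPM with EGF+AngII. MIR3687, annotated in repeats of the ribosomal RNA precursor, had 3203, 4835, 5068 and 6308 FPM and 5142, 5550, 9149 and 10890 FPM. In both the second series carried most of the difference, at 0.88 and 0.82 on the log2 scale against 0.41 and 0.41 in the first, and the groups overlapped.

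Of the reference genes CANX and GAPDH, the second differed at an unadjusted p under 0.05. CANX was at 880.5 ± 25.2 and 863 ± 47.1 FPM, a ratio of 0.98 with an interval from 0.890 to 1.08. GAPDH was at 931 ± 62.6 and 1059 ± 45.2 FPM, 1.14-fold with an interval from 1.04 to 1.25 (unadjusted p = 0.0073, adjusted p = 0.68, edgeR). GAPDH was higher with AngII by 0.31 in the first series and 0.067 in the second, and by 0.077 after GC correction.

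AngII without EGF was compared in the other 8 libraries after 6 h. Of 18618 genes 0 were called (0%) and 845 reached an unadjusted p under 0.05 (4.54%, edgeR). The difference between the AngII effects with and without EGF was called for 0 genes (0%), the lowest adjusted p being 0.175 for FAM41C, with 1491 at an unadjusted p under 0.05 (8.01%). Across the genes tested Pearson's r between the AngII effects with and without EGF was −0.093 (n = 18618), and −0.15 among 12973 genes above 5 FPM. No library is part of both effects, and genes are not independent replicates. Of the 703 genes higher with AngII on top of EGF 310 (44.1%) had a positive AngII effect without EGF, and of the 649 lower genes 191 (29.4%) had a negative one, where 43.5% of all genes tested had the same sign in both. The effects with and without EGF also ran in opposite order with transcript GC content, with Spearman correlations of 0.65 and −0.19 above 5 FPM. The part of this order in the signs and in Pearson's r was not tested.

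Side by side, single genes differed in which of the effects was larger. For JUN the log2 difference was 0.25 ± 0.10 with EGF and −0.030 ± 0.10 without, for FLNA 0.28 ± 0.082 and 0.044 ± 0.082 and for GAMT 0.55 ± 0.11 and −0.041 ± 0.11. For EGR1 it was 0.16 ± 0.11 with EGF and 0.50 ± 0.27 without, for TGFB1 0.17 ± 0.16 and 0.39 ± 0.24 and for FOS 0.35 ± 0.22 and 0.62 ± 0.39. None of these pairs of effects differed at an adjusted p under 0.05 (edgeR, between 0.59 and 0.88). After 24 h, with 4 EGF and 3 EGF+AngII libraries, 0 of 22174 genes were called (0%) and 747 reached an unadjusted p under 0.05 (3.37%). The difference between 24 h and 6 h was called for 0 of 21932 genes (0%), with 1041 at an unadjusted p under 0.05 (4.75%) and a lowest adjusted p of 0.97. For EGR1 the log2 difference was 0.42 ± 0.18 after 24 h and for JUN −0.27 ± 0.13.

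**Figure D4:**
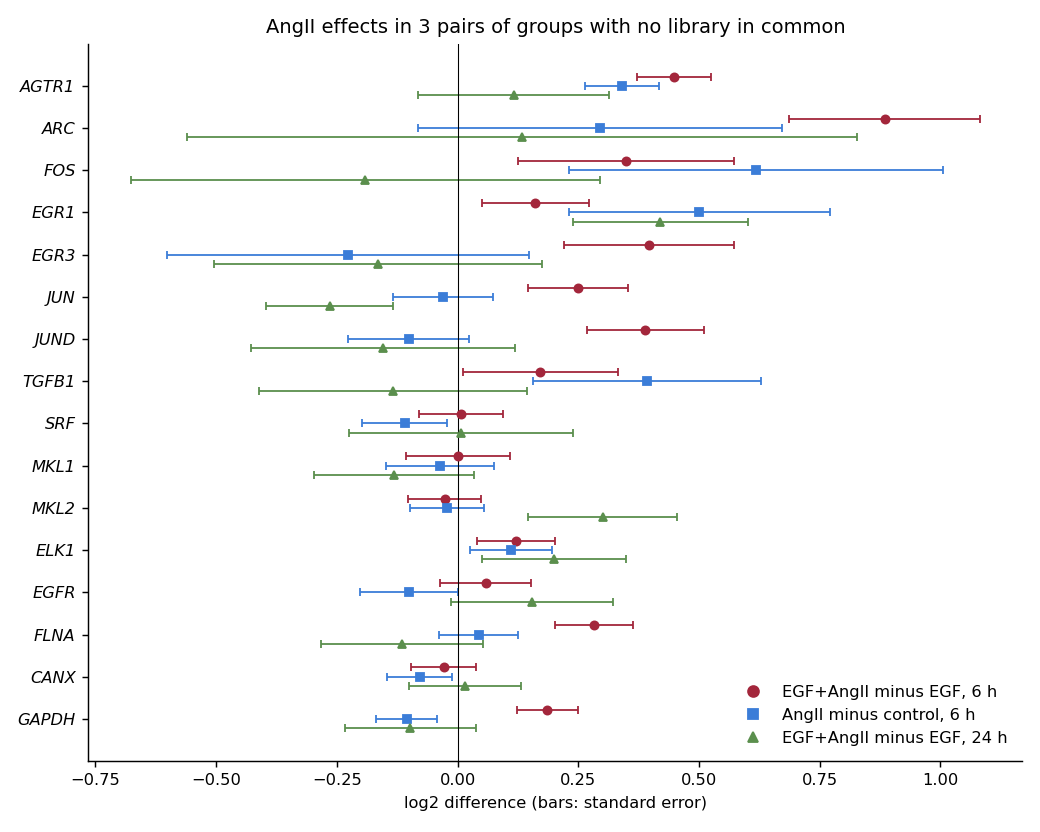
Log2 difference (horizontal axis, bars are standard errors from edgeR) of 16 genes for AngII added to EGF after 6 h (red), AngII against control after 6 h (blue) and AngII added to EGF after 24 h (green), which have no library in common. AGTR1 (0.45 and 0.34), FOS, EGR1, TGFB1 and ELK1 are above 0 by more than their standard error in both comparisons after 6 h. JUN and FLNA, among others, are so only in the first, and most bars of the low genes ARC, FOS and EGR3 are wide.

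The differences were ordered by the GC content of the transcript, taken from the longest annotated transcript of each gene. Across 12662 genes above 5 FPM with a known GC content the Spearman correlation between log2 difference and GC content was 0.65, and that for AngII minus control −0.19. These are correlations across genes of the same libraries. The median difference was −0.13 in the decile of genes with the lowest GC content and 0.20 in the decile with the highest. Genes higher at an unadjusted p under 0.05 had a median GC content of 58.8% and lower ones 39.0%, against 47.3% for all genes tested. The libraries took unequal parts in this. In the highest decile the median deviation from the mean of the 8 libraries was −0.27 in EGF replicate 1, 0.25 in EGF+AngII replicate 4 and 0.15 in EGF+AngII replicate 3.

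The order by GC content was present in each library series, with a Spearman correlation of 0.50 in the first and 0.57 in the second. Without EGF replicate 1 the correlation was 0.50 and 779 genes reached an unadjusted p under 0.05, and without EGF+AngII replicate 4 the values were 0.53 and 846 genes. Without both the correlation was 0.34, with medians of −0.060 and 0.095 in the lowest and highest decile, and 606 genes (3.19%) reached an unadjusted p under 0.05. When each library was corrected for its own trend with GC content, 746 genes reached it (4.01%), 369 higher (1.98%) and 377 lower (2.02%), and 516 of these were among the 1352. The part of sample handling or of the treatment in the order by GC content was not tested. AGTR1, with a GC content of 42.5%, had a larger difference after the correction (0.51).

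**Figure D5:**
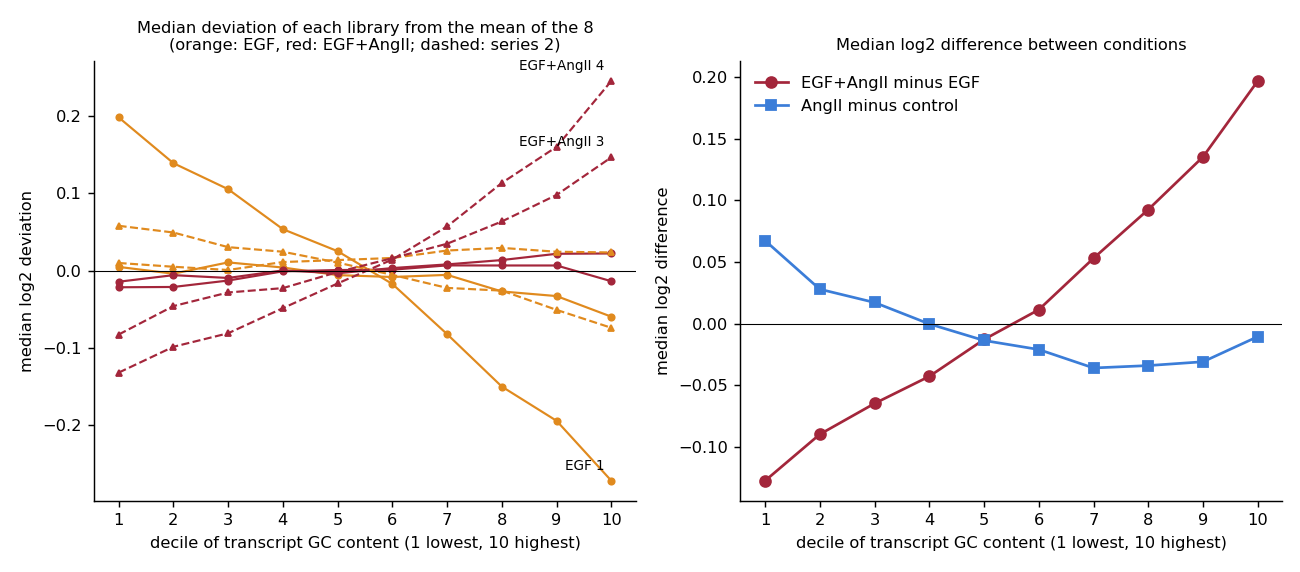
Genes above 5 FPM in deciles of transcript GC content (horizontal axis, 1 lowest and 10 highest): left, the median log2 deviation of each of the 8 libraries from their mean, with orange for EGF, red for EGF+AngII and dashed lines for the second series; right, the median log2 difference between conditions. EGF replicate 1 and EGF+AngII replicates 3 and 4 leave the other libraries at the ends (−0.27, 0.15 and 0.25 in the highest decile), and the difference EGF+AngII minus EGF runs from −0.13 to 0.20 while that of AngII minus control runs from 0.067 to −0.011.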

How the data were processed

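Total RNA depleted of ribosomal RNA was sequenced as paired reads. The authors clipped adaptors with Trim Galore and cutadapt (1.8.1), mapped reads to hg19 with TopHat2 (2.0.14) and counted fragments per Ensembl gene with featureCounts (1.4.6), as the submitters' processing notes name them. The design text deposited with the series names HISAT2 instead, and the strand setting was not given in the sources used here. The files deposited hold raw counts, 1 table per time point. The 24 h table holds 3 EGF+AngII libraries with a column.

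Genes were filtered with filterByExpr, scaled by TMM and tested by quasi-likelihood in edgeR 4.0.16 (R 4.3.3), with all 16 libraries after 6 h and 4 conditions in 1 fit. A gene was called at an FDR under 0.05, a fold above 1.5 and a mean above 5 FPM in the group where it was higher. The common biological coefficient of variation was 10.6%. Single genes were compared by exact two-sided permutation tests on FPM. Totals of 5518193 to 8540815 fragments per library limit the precision of low genes. The scripts were tested on simulated data.

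Named genes were (a) those whose transcript or plasmid the study measured, (b) the 10 higher and 10 lower genes of smallest p above 5 FPM without overlap of groups, (c) up to 4 members of each list with the smallest p under 0.05 and (d) genes called by an alternative that calls 5 or fewer; genes named outside this rule are list members chosen after their values were seen. The members of the lists and the rules were chosen with earlier results of these data known. The lists of the stable clone are memberships from the study's supplement and no value of it was used. Alternatives were DESeq2 1.42.0, voom of limma 3.58.1, the exact test of edgeR, other scaling and filters, a block for library series, libraries left out, protein-coding genes and, added after seeing the data, a correction of each library by lowess (span 0.3) on GC content. Libraries of the same series deviated together only weakly (mean correlation 0.15). Replicate libraries differed by more than sampling noise, with a chi-square per gene of 1.95 to 7.08.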

Additional observations from a re-analysis of the deposited data

Results flagged for a closer look

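For each named gene in each of the 2 conditions, 139 combinations of gene or total and condition were searched for a library that stands apart from the other 3 by Dixon's criterion (gap to the nearest library over the range, at the 95% level), and 11 were found where chance gives 6.95. ARC had a ratio of 0.969 in EGF, where replicate 1 was at 12.3 FPM and the others at 9.12 to 9.22 FPM. MYOCD had 1 in EGF because a single library had a count. CANX had 0.858 in EGF+AngII, with replicate 4 at 793 FPM and the others at 877 to 891 FPM. RP11.561C5.4 had 0.973 in EGF (replicate 2, 60.7 against 48.8 to 49.1 FPM) and CTDSP1 0.916 in EGF+AngII (replicate 2, 77.6 against 69.8 to 70.4 FPM). POU5F1 had 0.870 in EGF+AngII, with replicate 3 at 10.5 FPM and the others at 6.72 to 7.22 FPM. C1orf50 had 0.964 in EGF and 0.928 in EGF+AngII, in both through replicate 4 (9.70 and 14.1 FPM). TMLHE.AS1 had 0.834 in EGF (replicate 1, 15.1 against 9.12 to 10.1 FPM), JUND 0.947 in EGF (replicate 4, 67.7 against 59.7 to 60.1 FPM) and CDKN2C 0.910 in EGF (replicate 3, 48.5 against 54.4 to 55.0 FPM). The effect of AngII added to EGF differed between the library series at an FDR under 0.05 for 0 genes (edgeR).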

How the results depend on the processing

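No paired analysis was possible because replicate numbers are missing from the labels. A block for library series was run instead, called 0 genes and lowered the lowest adjusted p to 0.052 (edgeR), and libraries of the same series deviated together with a mean correlation of 0.15, against −0.15 for different series. The count of 0 called genes became 10 without a filter on low counts (5 higher, 5 lower), 1 with only the 8 libraries compared, 2 with the exact test of edgeR, 1 with voom, 4 with the 8 libraries and a series block, 2 at an FDR of 0.1 alone whether or not series was a block, and, at an adjusted p under 0.05 alone, 1 with GC correction and 2 with GC correction and series block; it stayed 0 with any 1 library left out. Without a filter the AngII effect without EGF gave 17 calls, the difference of AngII effects 51 and the 24 h comparison 61. With the filter each gave 0, so the calls without it are to be read with caution. Unadjusted p under 0.05 was reached by 779 to 1717 genes with 1 library left out, by 779 without EGF replicate 1 and 846 without EGF+AngII replicate 4, by 2010 with only the 8 libraries compared and by 2628 with these and a series block, and the cause was not tested. With GC correction the list medians moved to 0.0747 for immediate early genes, 0.0131 for SRF and MRTF cytoskeletal targets, 0.111 for ERK feedback genes and 0.0451 for TGF-beta. They moved to −0.0163, 0.0457 and −0.00103 for the stable clone's AngII lower, EGF higher and EGF lower genes. Other lists moved as well, among them AT1 receptor signalling (from 0.0745 to 0.0214) and EGR targets (from 0.0835 to 0.0182). ATF4 and amino acid genes went from 0.135 to 0.0646, YAP targets from 0.0408 to 0.0117 and AP-1 targets from 0.0276 to −0.032. With 1 library left out the medians ran from −0.00188 to 0.105 for calcium and cAMP genes, −0.0241 to 0.0549 for EGF receptor genes, 0.0358 to 0.0978 for TGF-beta genes, −0.00268 to 0.0489 for the clone's EGF lower and 0.0148 to 0.0544 for its AngII lower genes, −0.0108 (without EGF+AngII replicate 2) to 0.149 for hypoxia genes, 0.0259 to 0.108 for AT1 receptor signalling, 0.0424 to 0.0935 for SRF and MRTF targets (both lowest without EGF replicate 1), 0.0207 to 0.124 for EGR targets, 0.00354 to 0.0688 for AP-1 targets, 0.00666 to 0.0617 for tRNA synthetases, 0.0255 to 0.0747 for YAP targets, −0.0268 to 0.0384 for VEGF genes and −0.0438 to 0.0365 for SRF and its cofactors, and those of the other 6 lists moved by less than 1.5 times; with EGF replicate 1 and EGF+AngII replicate 4 left out together, chosen after seeing the data, TGF-beta genes had 0.0542 and VEGF genes 0.0738. Differences near 0 turned in sign. With GC correction, without and with series block, they were −0.00508 and −0.00993 for TGFB1, −0.14 and −0.14 for SRF, −0.156 and −0.155 for MKL1, 0.0128 and 0.0127 for MKL2 and 0.0451 and 0.0445 for CANX. MKL1 had −7.09e-05 with DESeq2 size factors and −0.000641 with a block for series. With 1 library left out SRF ran from −0.0422 to 0.0633, MKL1 from −0.0843 to 0.0715, EGFR from −0.00367 to 0.109 and CANX from −0.0446 to 0.014, and without EGF replicate 1 and EGF+AngII replicate 4 SRF had −0.0419, MKL1 −0.051, MKL2 0.0042 and CANX 0.0231. Of the other values for named genes 872 kept their direction and side of the threshold and 26 passed an FDR of 0.05 under an alternative. Fewer than about 20 counts per library, as in FAM41C, EGR2 and HBEGF, limit what could be seen.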
